A study of Mus musculus with 23 samples.

Results

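Transcript levels were followed for 8 cytokine receptor genes, Csf3r, Csf2ra, Csf2rb, Il4ra, Il6ra, Il1r2, Il10ra and Tgfbr2, in immature myeloid cells of mouse blood during tumour growth. The genes were chosen by name, as receptor chains for G-CSF, GM-CSF, IL-4 and IL-13, IL-6, IL-1, IL-10 and TGF-beta, and they are 8 of 24421 genes in the tables. All 8 were found in both tables and all passed the filter on low values. Libraries of poly-A RNA came from MDSCs (myeloid-derived suppressor cells) that had been separated from peripheral blood with magnetic beads. There were 3 CT26 libraries from Balbc mice on each of days 0, 4, 8 and 11, and 3 B16 libraries from C57bl mice on days 0, 8 and 11 with 2 on day 4, which makes 23 libraries. CT26 is a mouse colon carcinoma line and B16 is a mouse melanoma line. Mouse strain and tumour line therefore cannot be told apart, and the sources give no age, sex, tumour size or count of mice per library. The repeats are described as biological, and the p-values below measure the spread between these libraries.

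Cytokine receptors carry signals from growth factors and immune mediators across the cell membrane. G-CSF, through the receptor encoded by Csf3r, drives the making of neutrophils and their release from bone marrow. GM-CSF binds the alpha chain encoded by Csf2ra, which signals with the beta chain encoded by Csf2rb, and the same beta chain serves IL-3 and IL-5. The IL-4 receptor alpha chain (Il4ra) pairs with Il2rg to receive IL-4 and with Il13ra1 to receive IL-4 or IL-13, Il6ra pairs with Il6st, and Il10ra with Il10rb. Il1r2 encodes a decoy receptor that binds IL-1 without signalling, and Tgfbr2 binds TGF-beta and then recruits Tgfbr1. In tumour-bearing mice, several of these ligands are known for expanding immature neutrophils and monocytes in blood, and IL-4 receptor alpha has been used as a marker of suppressive myeloid cells.

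The receptor genes lie on separate chromosomes, apart from Il10ra and Tgfbr2, which share chromosome 9. In the GRCm38 annotation they are Csf3r (chr4:126024550-126044440, plus strand), Csf2ra (chr19:61223957-61228429, minus), Csf2rb (chr15:78325752-78353847, plus), Il4ra (chr7:125552120-125579474, plus), Il6ra (chr3:89864059-89913196, minus), Il1r2 (chr1:40074079-40125231, plus), Il10ra (chr9:45253837-45269149, minus) and Tgfbr2 (chr9:116084293-116175360, minus). Promoters are shown for 4 genes: Il4ra and Il1r2, which had the largest changes, and Csf3r and Csf2ra, which had no called change against day 0 in CT26. Each holds 250 bases before and 50 after the RefSeq start in GRCm38.p6, read 5′ to 3′ on the gene's strand. They lie at chr7:125552021-125552320 (Il4ra, plus), chr1:40085843-40086142 (Il1r2, plus), chr4:126024409-126024708 (Csf3r, plus) and chr19:61228369-61228668 (Csf2ra, minus). Each RefSeq start lies inside the annotated span of its gene. That of Il1r2 lies farthest inside, as its stretch begins at 40085843 and the annotated gene at 40074079. The Il1r2 stretch is therefore not the promoter of the annotated 5′ start. Capitals mark matches on either strand to TTCNNNGAA (STAT), TTCNNNNGAA (STAT6), GAGGAA (PU.1) or CACGTG (an E-box).
Il4ra: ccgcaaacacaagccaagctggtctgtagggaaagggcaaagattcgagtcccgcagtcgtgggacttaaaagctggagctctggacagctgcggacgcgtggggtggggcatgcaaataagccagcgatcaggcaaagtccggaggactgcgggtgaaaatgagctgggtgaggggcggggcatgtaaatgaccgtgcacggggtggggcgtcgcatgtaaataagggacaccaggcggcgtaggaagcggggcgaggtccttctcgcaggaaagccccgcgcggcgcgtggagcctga
Il1r2: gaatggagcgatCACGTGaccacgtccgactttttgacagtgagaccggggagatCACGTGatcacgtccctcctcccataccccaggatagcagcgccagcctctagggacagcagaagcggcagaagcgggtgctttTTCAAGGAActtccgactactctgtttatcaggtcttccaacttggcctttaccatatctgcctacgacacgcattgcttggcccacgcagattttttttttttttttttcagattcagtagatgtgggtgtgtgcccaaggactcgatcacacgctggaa
Csf3r: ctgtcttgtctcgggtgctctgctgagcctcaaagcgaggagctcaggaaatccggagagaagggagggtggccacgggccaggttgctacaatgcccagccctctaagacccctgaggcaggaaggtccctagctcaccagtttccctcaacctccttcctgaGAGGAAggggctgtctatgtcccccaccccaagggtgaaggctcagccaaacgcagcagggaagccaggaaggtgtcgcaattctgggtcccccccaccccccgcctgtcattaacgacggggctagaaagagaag
Csf2ra: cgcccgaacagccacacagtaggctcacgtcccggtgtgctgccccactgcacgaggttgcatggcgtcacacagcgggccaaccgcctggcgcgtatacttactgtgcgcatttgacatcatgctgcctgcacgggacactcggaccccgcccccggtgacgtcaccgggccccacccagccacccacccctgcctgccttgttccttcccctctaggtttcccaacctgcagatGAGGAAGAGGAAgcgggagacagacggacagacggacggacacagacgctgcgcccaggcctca
The Il4ra promoter held none of the 4 motifs. The Il1r2 promoter held 2 CACGTG matches, starting 238 and 195 bases before the start, and 1 TTCNNNGAA match starting 111 bases before it. Csf3r had 1 GAGGAA match 86 bases before its start, and Csf2ra had 2 that follow each other without overlap, 14 and 8 bases before its start. These motifs occur in 8.3% (TTCNNNGAA), 6.95% (TTCNNNNGAA), 28.3% (GAGGAA) and 7.15% (CACGTG) of 32851 mouse promoters of the same length. Promoters were found for 6 of the 8 genes, not for Csf2rb and Il10ra, and among those 6 the GAGGAA motif was in 4, the CACGTG motif in 2, the TTCNNNGAA motif in 1 and the TTCNNNNGAA motif in 0. A match is a description of letters and says nothing of binding.

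Total normalized counts lay between 10703698 and 14272441 per CT26 library and between 12388717 and 15027698 per B16 library. All 6 genes listed as markers of the labelled cells (Itgam, Cd33, S100a8, S100a9, Csf3r and Fcgr3, of which Csf3r is also one of the 8) were detected. Their detection does not test the label of the cells. Their summed level ran from 433804 to 823629 over the CT26 libraries and from 508801 to 769204 over those of B16. The 3 B16 day 0 libraries carried 2.57% to 3.10% of their counts on the ribosomal precursor Rn45s, against at most 1.05% in the other B16 libraries, so these libraries stand apart in each B16 comparison with day 0. Replicate 1 of CT26 day 11 also stood apart, with a summed level of 7919 for 8 tissue macrophage markers against 1112 and 1788 in the other day 11 libraries. The CT26 and B16 tables were scaled separately, so levels are read across days within a model and not between models. In these bulk libraries a larger number of cells of a type and more RNA per cell cannot be told apart. All changes are differences of log2(normalized count + 1) with their standard error, tested with limma over all genes at an adjusted p of 0.05.

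Csf3r, the G-CSF receptor gene, was among the most abundant transcripts of these cells and rose in B16 but not detectably in CT26. It held rank 2 or 3 among all genes in the CT26 libraries, with at most 1.66% of the counts, and ranks 2 to 8 in the B16 libraries, with 0.677% to 1.31%. The CT26 libraries had 132766, 150325 and 160017 normalized counts on day 0, then 199361, 173198 and 170164 on day 4, then 168253, 161113 and 164355 on day 8, and 132582, 177324 and 170958 on day 11. The day 4 libraries were the highest on average and did not overlap with day 0, while the day 11 libraries spanned the day 0 range. No CT26 change was called: the log2 changes against day 0 were 0.29 on day 4 (interval of 2 standard errors, -0.04 to 0.63), 0.16 on day 8 (-0.17 to 0.49) and 0.11 on day 11 (-0.22 to 0.45). Without replicate 1 of day 11, the day 4 difference was called with the same log2 change and an adjusted p of 0.031. In B16 the counts were 97346, 102018 and 93544 on day 0, then 116959.9 and 119387 on day 4, then 162404, 151415 and 139806 on day 8, and 152739, 141692 and 153283 on day 11. Every later B16 library was above every day 0 library. Csf3r rose by 0.28 ± 0.07 on day 4 (adjusted p = 0.00859), by 0.63 ± 0.06 on day 8 (adjusted p = 4.45e-06) and by 0.61 ± 0.06 on day 11 (adjusted p = 1.3e-05). The largest of these is a 1.55-fold rise. With equal library totals that leave out Rn45s, the day 4 change was 0.20 and not called (adjusted p = 0.0572).

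**Figure D1:**
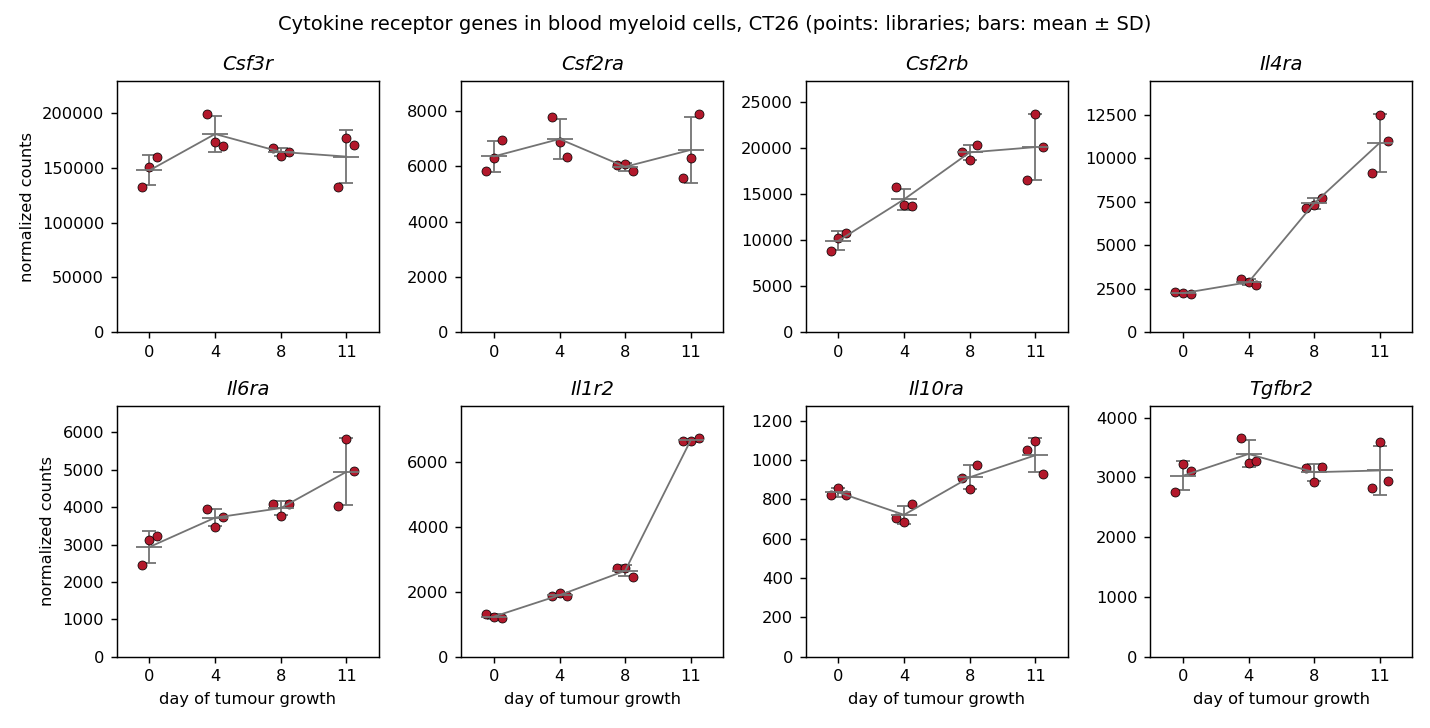
Normalized counts of the 8 receptor genes in each CT26 library by day (0, 4, 8 and 11) on linear axes that start at 0; points are libraries, and lines and bars give each day's mean ± SD. Il4ra and Il1r2 climb to means of 10889 and 6678 on day 11, while the day 11 libraries of Csf3r, Csf2ra and Tgfbr2 overlap with those of day 0.

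The GM-CSF receptor chains parted in CT26, where the beta chain gene Csf2rb rose and the alpha chain gene Csf2ra showed no called change. Csf2rb had 8778, 10199.9 and 10774 normalized counts on CT26 day 0, 15713, 13836 and 13676 on day 4, 19533, 18669 and 20299.9 on day 8, and 16478, 23694 and 20056 on day 11. The day 0, 4 and 8 libraries did not overlap with each other, and those of day 11 enclosed those of day 8. Csf2rb rose by 0.54 ± 0.12 on day 4 (adjusted p = 0.00919), 0.98 ± 0.12 on day 8 (adjusted p = 1.25e-05) and 1.01 ± 0.12 on day 11 (adjusted p = 3.2e-06), the last a 2.01-fold rise. The day 4 call was lost when replicate 1 of day 0 or of day 4 was left out (adjusted p = 0.0568 and 0.0564). Csf2ra ranged from 5585 to 7908 normalized counts over all CT26 libraries. Its log2 changes against day 0 were 0.13, -0.08 and 0.04, with intervals of -0.09 to 0.36, -0.31 to 0.14 and -0.19 to 0.27. The day 8 change was -0.26 and called with equal library totals (adjusted p = 0.0465).

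In B16, Csf2rb was higher on every later day and Csf2ra on days 8 and 11. Csf2rb had 5829.6, 6256 and 6257 normalized counts on day 0, 12332 and 12029.7 on day 4, 10889.9, 9774 and 8662 on day 8, and 13441, 12280.0 and 13021 on day 11. All later libraries were above day 0, and the day 8 libraries were below those of days 4 and 11. Csf2rb rose by 0.99 ± 0.08 on day 4 (adjusted p = 6.3e-06), 0.67 ± 0.07 on day 8 (adjusted p = 9.94e-06) and 1.08 ± 0.07 on day 11 (adjusted p = 8.61e-07). Csf2ra had 5688, 5781 and 4847 normalized counts on B16 day 0 and 5454 and 4739.8 on day 4, which overlap. It had 8747, 8827 and 8179 on day 8 and 8772, 8378 and 8525 on day 11, above every earlier library. Csf2ra rose by 0.66 ± 0.07 on day 8 (adjusted p = 1.1e-05) and by 0.66 ± 0.07 on day 11 (adjusted p = 2.5e-05), and on day 4 its log2 change was -0.09 ± 0.08 (adjusted p = 0.416).

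Csf2rb2, the mouse beta chain that serves IL-3 alone, lies beside Csf2rb (chr15:78282507-78305721, minus strand) and took the same direction. Its means on days 0, 4, 8 and 11 were 1034, 1397, 2567 and 2873 normalized counts in CT26, and 846, 1846, 1224 and 2227 in B16. Csf2rb2 rose against day 0 in all 6 comparisons, by 1.47 ± 0.10 on CT26 day 11 (adjusted p = 3.51e-09) and 1.40 ± 0.10 on B16 day 11 (adjusted p = 9.18e-07). Of the 50-base stretches of Csf2rb transcripts, 12.3% also occur in Csf2rb2 transcripts, and 18.4% of those of Csf2rb2 occur in Csf2rb, so the split of reads between both genes is uncertain.

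Il6ra, the IL-6 receptor alpha chain gene, rose in both models on days 8 and 11. In CT26 it had 2451, 3126 and 3235 normalized counts on day 0, 3954, 3483 and 3727 on day 4, 4089.7, 3754 and 4085 on day 8, and 4041, 5833 and 4960.1 on day 11. All later libraries were above day 0. The log2 change was 0.35 ± 0.12 on day 4 (adjusted p = 0.0723), and Il6ra rose by 0.45 ± 0.12 on day 8 (adjusted p = 0.0111) and 0.75 ± 0.12 on day 11 (adjusted p = 7.52e-05). The day 8 call was lost without replicate 1 of day 0 (adjusted p = 0.0666), and the day 4 change was called without replicate 1 or 2 of day 11 (adjusted p = 0.0116 and 0.0336). In B16 it had 1883, 1782 and 1882 on day 0, 2362 and 2249 on day 4, 3738, 3214 and 2679 on day 8, and 2905, 2469 and 2991 on day 11, again with no later library as low as day 0. The B16 log2 change was 0.32 ± 0.12 on day 4 (adjusted p = 0.0525), and Il6ra rose by 0.78 ± 0.11 on day 8 (adjusted p = 5.04e-05) and by 0.59 ± 0.11 on day 11 (adjusted p = 0.000756). The day 4 change was called without replicate 1 or 3 of day 8 or replicate 2 of day 11 (adjusted p = 0.0192, 0.0157 and 0.0464). A transcript model on the other strand, Gm42809, shares 242 exon bases with Il6ra, and whether the libraries keep strand is not given in the sources used here.

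Il4ra, the IL-4 and IL-13 receptor alpha chain gene, was the member with the largest change on CT26 day 8. The CT26 libraries had 2283, 2266 and 2171 normalized counts on day 0, 3051, 2858 and 2715 on day 4, 7149, 7334 and 7732 on day 8, and 9172, 12511 and 10984 on day 11. The ranges of the 4 days did not overlap, and each day lay above the day before. Il4ra rose by 0.36 ± 0.10 on day 4 (adjusted p = 0.0255), by 1.72 ± 0.10 on day 8 (adjusted p = 1.55e-09) and by 2.27 ± 0.10 on day 11 (adjusted p = 9.89e-12). The last is a 4.82-fold rise, with group means of 10889 ± 1672 on day 11 and 2240.1 ± 60.7 on day 0 (SD, n = 3 each). Among 11373 genes ordered by the size of their change against day 0, Il4ra stood at place 254 on day 8 and 499 on day 11. The small day 4 rise lost its call without replicate 1, 2 or 3 of day 0 or replicate 1 or 2 of day 4, with adjusted p-values from 0.0612 to 0.116.

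The B16 course of Il4ra was broken at day 8. Its libraries had 4323, 4498 and 5718 normalized counts on day 0, 9258 and 8421 on day 4, 5277, 5169 and 4929 on day 8, and 9642, 8896 and 8874 on day 11. Every day 4 and day 11 library was above every library of days 0 and 8, and days 0 and 8 overlapped. Il4ra rose by 0.88 ± 0.10 on day 4 (adjusted p = 5.5e-05) and 0.93 ± 0.09 on day 11 (adjusted p = 9e-06), and its log2 change on day 8 was 0.09 ± 0.09 (adjusted p = 0.411). The day 8 difference was called when replicate 3 of day 0 was left out (log2 change 0.22, adjusted p = 0.0116), and with equal library totals (log2 change 0.22, adjusted p = 0.0456). An opposite-strand model, Gm44876, shares 571 exon bases with Il4ra.

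Il1r2, the IL-1 decoy receptor gene, had the largest change of the 8 on CT26 day 11. In CT26 it had 1317, 1212 and 1188 normalized counts on day 0, 1875, 1955 and 1869.6 on day 4, 2752, 2740.4 and 2463 on day 8, and 6644, 6659 and 6733 on day 11. These ranges did not overlap, and the widest step was the last. Il1r2 rose by 0.62 ± 0.07 on day 4 (adjusted p = 3.51e-05), 1.10 ± 0.07 on day 8 (adjusted p = 8.34e-09) and 2.43 ± 0.07 on day 11 (adjusted p = 1.31e-13), a 5.39-fold rise. In B16 it had 2907, 2893 and 2955 on day 0, 4059.9 and 4982 on day 4, 2755, 2807 and 2932 on day 8, and 5589, 5217 and 5147 on day 11. Day 8 overlapped with day 0, and days 4 and 11 lay above both. Il1r2 rose by 0.62 ± 0.08 on B16 day 4 (adjusted p = 9.77e-05) and by 0.86 ± 0.07 on day 11 (adjusted p = 2.64e-06), and its log2 change on day 8 was -0.04 ± 0.07 (adjusted p = 0.615).

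**Figure D2:**
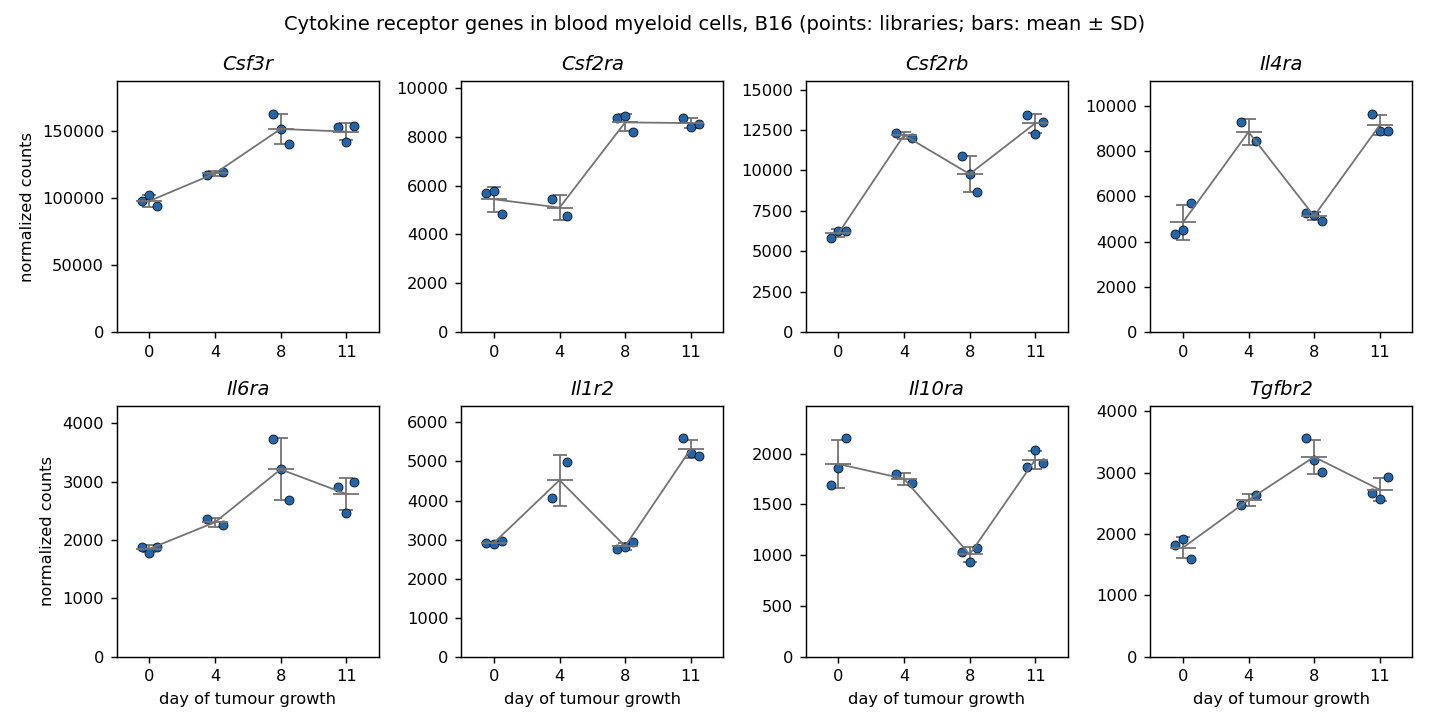
Normalized counts of the 8 receptor genes in each B16 library by day, on linear axes from 0, with points for libraries, lines and bars for each day's mean ± SD, and 2 libraries on day 4. On day 8 Il4ra, Il1r2 and Il10ra are low, with means of 5125, 2831 and 1008, while Csf3r, Csf2ra, Il6ra and Tgfbr2 have their highest means.

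Il10ra, whose product binds the anti-inflammatory cytokine IL-10, was, with the deposited scaling, the only one of the 8 genes with a called fall against day 0, on B16 day 8. With equal library totals, called falls were also seen for Il10ra on CT26 day 4, Csf2ra on CT26 days 8 and 11, and Tgfbr2 on CT26 day 11. The B16 libraries had 1689, 1853 and 2149 normalized counts on day 0, 1796 and 1709 on day 4, 1028, 929 and 1066 on day 8, and 1866, 2039.6 and 1911 on day 11. The 3 day 8 libraries were below all others, and days 4 and 11 each overlapped with day 0. Il10ra fell by 0.91 on the log2 scale on day 8 (standard error 0.09, adjusted p = 3.02e-06), and its log2 changes were -0.11 ± 0.10 on day 4 (adjusted p = 0.418) and 0.04 ± 0.09 on day 11 (adjusted p = 0.75). In CT26 it had 822, 859 and 823 on day 0, 703, 685 and 775 on day 4, 907, 853 and 974 on day 8, and 1048, 1094 and 928 on day 11, with the day 11 libraries above those of day 0. Il10ra rose by 0.29 ± 0.08 on CT26 day 11 (adjusted p = 0.00861), and the changes on days 4 and 8 were -0.21 ± 0.08 and 0.12 ± 0.08, neither called, although equal library totals gave -0.33 on day 4 with a call (adjusted p = 0.026). With libraries scaled to equal totals the CT26 day 11 difference was 0.00 (adjusted p = 0.969), and on reads recovered from the values it was 0.20 with edgeR (adjusted p = 0.15) and 0.28 with DESeq2 (adjusted p = 0.127).

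Tgfbr2, the ligand-binding TGF-beta receptor gene, was called in B16 on every later day and in CT26 on none. In B16 it had 1819, 1919 and 1594 normalized counts on day 0, 2478 and 2626 on day 4, 3555, 3205 and 3003 on day 8, and 2661, 2570.0 and 2930.1 on day 11. Every later library was above day 0, and day 8 was highest. Tgfbr2 rose by 0.53 ± 0.09 on day 4 (adjusted p = 0.000935), 0.87 ± 0.08 on day 8 (adjusted p = 3.12e-06) and 0.62 ± 0.08 on day 11 (adjusted p = 0.000104). The CT26 libraries ranged from 2758 to 3654, with days 8 and 11 overlapping with day 0 and all 3 day 4 libraries above it. The CT26 log2 changes were 0.16 on day 4 (interval -0.02 to 0.35), 0.03 on day 8 (-0.16 to 0.22) and 0.04 on day 11 (-0.15 to 0.23). With equal library totals, Tgfbr2 and Csf2ra were instead called lower on CT26 day 11, at -0.25 and -0.24, under a scaling that put the median of all genes at -0.29.

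Against day 0, 3 of the 8 receptor genes rose on CT26 day 4, where 6.4% of all tested genes rose, 4 rose on day 8 against 15.1%, and 5 rose on day 11 against 26.3%. None of the 8 fell on these days, on which 4.46%, 11.8% and 24% of genes fell. In B16, 5 of 8 rose on day 4 against 20.3% of genes, 5 rose on day 8 against 28.6%, and 7 rose on day 11 against 23.9%. The single fall, of Il10ra on B16 day 8, stands beside 27.3% of genes, and none fell on B16 days 4 and 11, on which 15.5% and 21.8% of genes did. Calls of either direction covered 10.9%, 26.9% and 50.3% of genes on CT26 days 4, 8 and 11, and 35.8%, 56% and 45.7% on B16 days 4, 8 and 11. Abundant genes are called more often: of the genes at least as abundant as the lowest member, 15.8%, 31.9% and 52.4% rose on CT26 days 4, 8 and 11, and 39.7%, 35.4% and 51.1% on B16 days 4, 8 and 11, and 43.4% fell on B16 day 8. The 5 of 8 that rose on CT26 day 11 are thus near the share of such genes. The median log2 change of all genes was -0.01 on CT26 day 11 and -0.02 on B16 day 11. All comparisons with day 0 in a model share its 3 day 0 libraries. Without replicate 1 of day 11, 5 receptor genes were called on CT26 day 4, 4 on day 8 and 5 on day 11. On day 4 this fit also called more of all genes, 2419 against 1235 with all libraries. On days 8 and 11 it called as many receptor genes as the fit with all libraries. The day 11 changes were then 2.39 for Il4ra, 2.43 for Il1r2, 1.14 for Csf2rb, 0.88 for Il6ra and 0.27 for Il10ra, all called, and 0.24 for Csf3r, 0.15 for Csf2ra and 0.10 for Tgfbr2, none called. In the reads recovered from 8 CT26 libraries, a single day 4 library was left. With edgeR the day 4 changes were 0.40 for Il4ra, 0.71 for Csf2rb and 0.55 for Il1r2, none called. DESeq2 gave 0.43 for Il4ra on day 4, not called. The loss of these calls cannot be told apart from the loss of libraries. The day 8 rise of Il6ra was 0.47 with edgeR and not called (adjusted p = 0.0781).

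**Figure D3:**
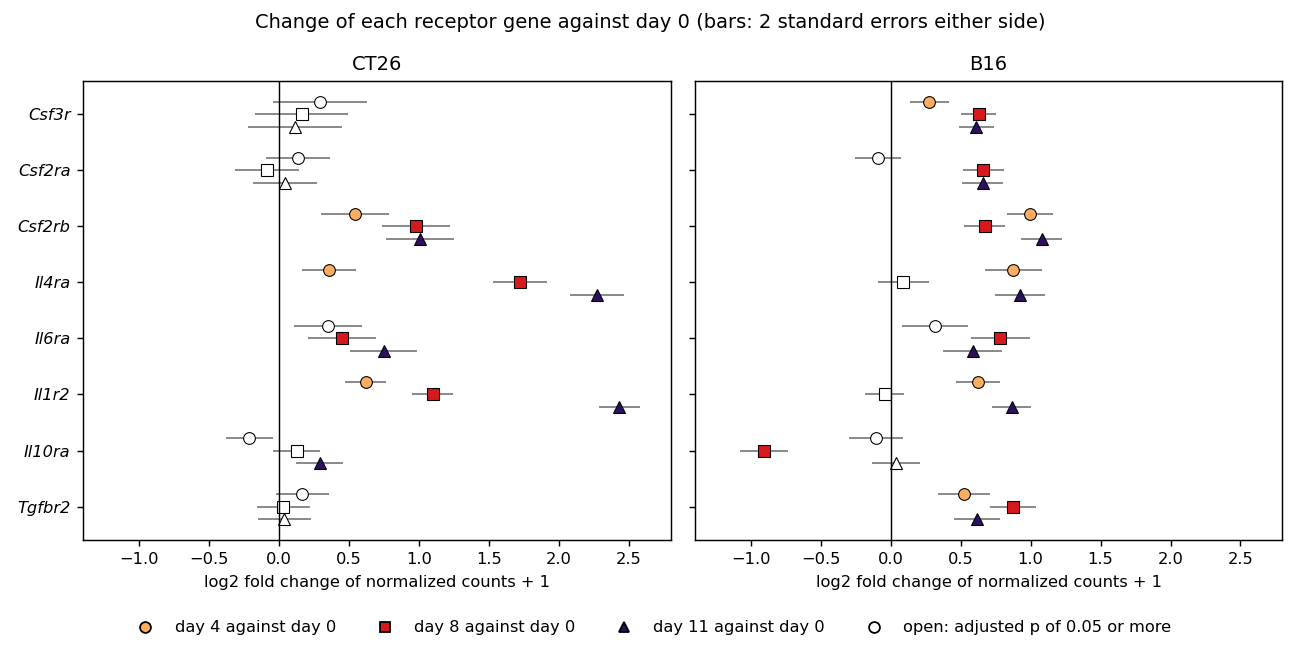
Log2 change against day 0 for each receptor gene on days 4, 8 and 11, in CT26 and in B16, with bars of 2 standard errors; filled points passed an adjusted p of 0.05. In CT26 Il4ra and Il1r2 reach 2.27 and 2.43, and in B16 Il10ra is at -0.91 on day 8.

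The steps between later days are not measured against day 0, although the day 0 libraries enter the spread estimate. These steps placed the CT26 rises at different times. Both CT26 steps share the day 8 libraries. Between days 4 and 8 in CT26, 4 of 8 receptor genes rose, against 7.42% of genes (5.96% fell) and 13% of genes at least as abundant as the lowest member: Il4ra by 1.37 ± 0.10 (adjusted p = 9.16e-08), Il1r2 by 0.48 ± 0.07 (adjusted p = 0.000196), Csf2rb by 0.44 ± 0.12 (adjusted p = 0.0224) and Il10ra by 0.34 ± 0.08 (adjusted p = 0.0114). Leaving out any 1 day 8 library, or replicate 2 or 3 of day 4, ended the Csf2rb call, and leaving out replicate 2 of day 4 or replicate 3 of day 8 ended the Il10ra call (adjusted p up to 0.0934 and 0.0685). On recovered reads, with a single CT26 day 4 library, edgeR and DESeq2 gave 0.31 and 0.31 for Csf2rb and 0.38 and 0.37 for Il10ra, none called. For Il1r2 edgeR gave 0.47, not called. Between days 8 and 11 in CT26, Il1r2 rose by 1.33 ± 0.07 (adjusted p = 2.34e-09) and Il4ra by 0.55 ± 0.10 (adjusted p = 0.00069), 2 of 8 against 10.9% of genes (22.5% of those at least as abundant as the lowest member), and 0 fell against 9.94%. Without replicate 1 of day 11 the Il6ra step of 0.30 ± 0.12 became 0.44 and was called (adjusted p = 0.00338).

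In B16 all 8 receptor genes were called between days 4 and 8, against 26.7% of genes, with 4 higher and 4 lower. Csf2ra rose by 0.75 ± 0.08 (adjusted p = 5.07e-05), Il6ra by 0.46 ± 0.12 (adjusted p = 0.0113), Csf3r by 0.35 ± 0.07 (adjusted p = 0.00275) and Tgfbr2 by 0.35 ± 0.09 (adjusted p = 0.0154). Il10ra fell by 0.80 (adjusted p = 0.000103), Il4ra by 0.79 (adjusted p = 0.000164), Il1r2 by 0.67 (adjusted p = 8.59e-05) and Csf2rb by 0.32 (adjusted p = 0.0119). The 4 rises stand beside 12.7% of genes that rose, and the 4 falls beside 14.1% that fell. Of genes at least as abundant as the lowest member, 56.9% were called, 15.1% higher and 41.9% lower, so the 4 falls are near the share of such genes. The calls of Csf2rb, Il6ra and Tgfbr2 each ended when 1 library was left out (replicate 1 of day 4, replicate 3 of day 4, and replicate 1 of day 4 or of day 8), with adjusted p-values between 0.05 and 0.0906. The Csf2rb fall was -0.15 and not called with equal library totals.

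The step between days 8 and 11 in B16 ran the other way for the genes that had fallen. Both B16 steps share the day 8 libraries. Il10ra rose by 0.94 ± 0.09 (adjusted p = 6.68e-06), Il1r2 by 0.91 ± 0.07 (adjusted p = 2.2e-06), Il4ra by 0.83 ± 0.09 (adjusted p = 2.63e-05) and Csf2rb by 0.41 ± 0.07 (adjusted p = 0.00117), 4 of 8 against 18.7% of genes and against 53.7% of genes at least as abundant as the lowest member, which is near the members' share. Tgfbr2 fell by 0.26 (standard error 0.08, adjusted p = 0.03), 1 of 8 against 17.4% of genes, and this call was lost when replicate 1 or 2 of day 8 or of day 11 was left out (adjusted p up to 0.113) and with the replicate number as a block (adjusted p = 0.0514). Calls of either direction, 5 of 8, stand beside 36.2% of genes. Csf3r and Csf2ra had log2 changes of -0.02 and 0.00, and Il6ra had -0.19, which was -0.32 and called without replicate 3 of day 8 (adjusted p = 0.0169). With equal library totals, which put the median of all genes at -0.31, these 3 were called lower at -0.28, -0.27 and -0.46, and Csf2rb was at 0.14 and not called.

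Whether the change since day 0 differed between the models was tested directly, as the CT26 change minus the B16 change. On day 8 the difference was called for 6 of the 8 genes, against 50.3% of all genes and 69.7% of genes at least as abundant as the lowest member, a share near that of the members. Il4ra had risen by 1.63 ± 0.14 more in CT26 (adjusted p = 2.81e-09), Il1r2 by 1.14 ± 0.10 more (adjusted p = 3.35e-09) and Il10ra by 1.03 ± 0.12 more (adjusted p = 3.05e-07). The CT26 change was below the B16 change by 0.84 ± 0.13 for Tgfbr2 (adjusted p = 1.23e-05), 0.75 ± 0.14 for Csf2ra (adjusted p = 0.00017) and 0.47 ± 0.16 for Csf3r (adjusted p = 0.015). Among all genes, the difference was positive and called for 23.7% and negative and called for 26.6%. Differences for Csf2rb (0.31, interval 0.01 to 0.60) and Il6ra (-0.34, interval -0.68 to 0.01) were not called. That of Csf2rb was called without replicate 1 or 2 of CT26 day 11 or replicate 1 of B16 day 8 (adjusted p = 0.0339, 0.0453 and 0.0389), and that of Il6ra without replicate 1 of CT26 day 0 or replicate 3 of B16 day 8 (adjusted p = 0.027 and 0.0274). With equal library totals, whose median over all genes was -0.34 for this difference, Il6ra was called at -0.64.

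On day 11 the difference between models was positive for Il1r2 (1.57 ± 0.10, adjusted p = 3.36e-11) and Il4ra (1.34 ± 0.14, adjusted p = 7.91e-08), 2 of 8 genes against 20.8% of all genes. It was negative for Csf2ra (-0.62 ± 0.14, adjusted p = 0.00148), Tgfbr2 (-0.58 ± 0.13, adjusted p = 0.000999) and Csf3r (-0.50 ± 0.16, adjusted p = 0.0119), 3 of 8 against 22.3%, which makes 5 of 8 called against 43.1%, and against 58.7% of genes at least as abundant as the lowest member. Il10ra was at 0.25 ± 0.12 (adjusted p = 0.0948) and was called without replicate 3 of CT26 day 11 or replicate 1 of B16 day 0 (adjusted p = 0.0396 and 0.0316). Without replicate 1 of CT26 day 11 the same 5 differences were called, Csf3r at -0.37 and Il4ra at 1.46. On day 4 Csf2rb (-0.45 ± 0.16, adjusted p = 0.043) and Il4ra (-0.52 ± 0.15, adjusted p = 0.0133) had the smaller change in CT26, 2 of 8 against 11.7%, and none had the larger change, against 9.24%. Of genes at least as abundant as the lowest member, 32% were called, 13.9% lower and 18.1% higher in CT26, a share near that of the members. The Csf2rb difference was lost in 13 of 23 fits that each left out 1 library, and with the replicate number as a block (adjusted p = 0.0687). That of Il4ra was -0.45 and not called without replicate 1 of B16 day 4, which leaves a single library on that day. Neither was called by the count tests, which hold a single CT26 day 4 library. There edgeR and DESeq2 gave -0.31 and -0.26 for Csf2rb, and -0.48 and -0.44 for Il4ra. The Tgfbr2 difference of -0.36 (adjusted p = 0.0658) was called without replicate 1 of CT26 day 0, replicate 1 or 2 of CT26 day 11 or replicate 2 of B16 day 0 (adjusted p = 0.0351 to 0.046), and at -0.43 with equal library totals. The 3 tests share the day 0 libraries of both models.

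**Figure D4:**
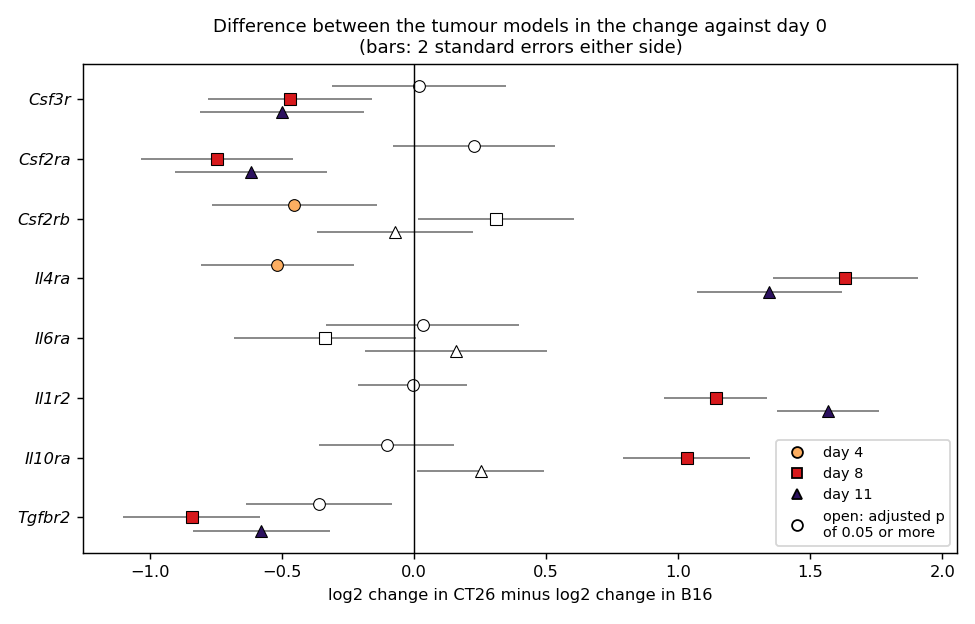
CT26 change minus B16 change since day 0, in log2 units, for each receptor gene on days 4, 8 and 11, with bars of 2 standard errors and filled points where the adjusted p was below 0.05. Il4ra and Il1r2 lie at 1.63 and 1.14 on day 8, and Csf2ra and Tgfbr2 lie at -0.75 and -0.84.

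Ratios within a library, which no scaling of the library can move, showed how the receptor genes changed relative to each other. Per 100 normalized counts of Csf3r, Il4ra had 1.53 ± 0.18, 1.59 ± 0.06, 4.50 ± 0.23 and 6.80 ± 0.33 on CT26 days 0, 4, 8 and 11 (SD, n = 3 each). The CT26 day 4 libraries overlapped with day 0 in this ratio, and those of days 8 and 11 lay above all earlier ones. In B16 it was 4.99 ± 0.97, 7.48 ± 0.61, 3.40 ± 0.14 and 6.13 ± 0.29 on the same days, with n = 2 on day 4, and all day 8 libraries were below all day 0 libraries. Il1r2 per 100 Csf3r was 0.847, 1.06, 1.61 and 4.23 in CT26 and 2.99, 3.82, 1.88 and 3.57 in B16. Csf2rb per 100 Csf2ra was 155.7, 206.4, 326.0 and 308.1 in CT26. It was 113.3, 239.9, 113.7 and 150.8 in B16, where day 8 was back in the day 0 range of 102.5 to 129.1.

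**Figure D5:**
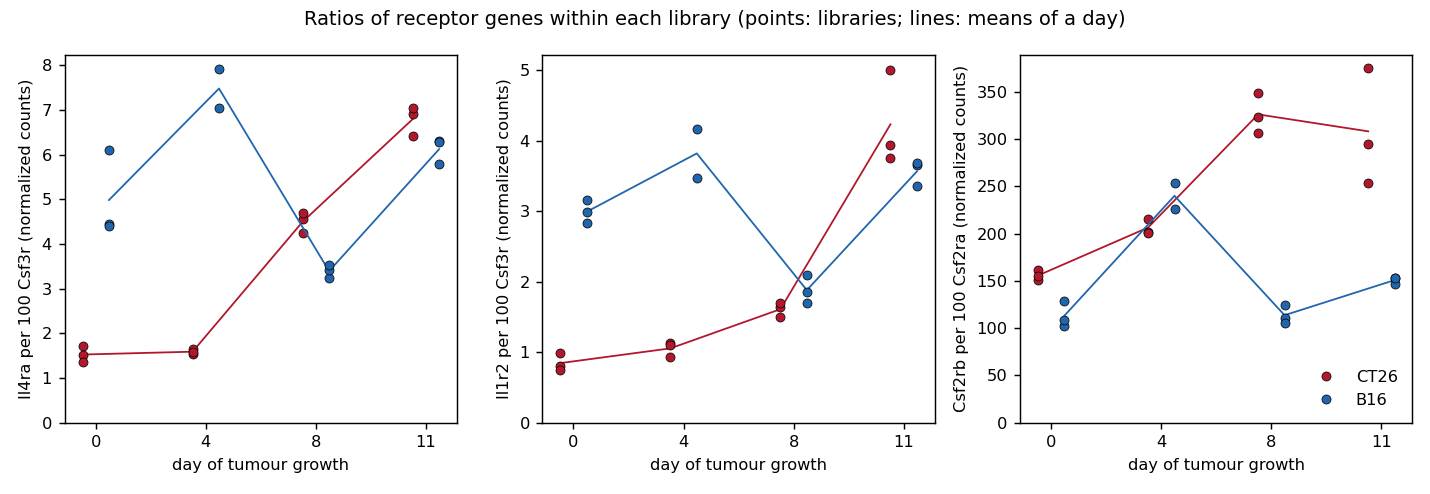
Ratios of 2 receptor genes within each library by day, for CT26 and B16, as normalized counts of the first gene per 100 of the second; points are libraries and lines join group means. Il4ra per 100 Csf3r reaches 6.80 on CT26 day 11 and dips to 3.40 on B16 day 8.

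Levels of different genes were compared as normalized counts per kilobase of annotated exon. Csf3r was the highest of the 8 on all days, at 40926 to 50127 per kilobase in CT26 group means and 27053 to 41898 in B16. Csf2ra, Csf2rb and Il1r2 held the next 3 places in every group. On CT26 day 0 these were Csf2ra at 2217 ± 196, Csf2rb at 1363 ± 141 and Il1r2 at 649 ± 36.0 per kilobase, and on CT26 day 11 Il1r2 stood second at 3500.3 ± 25.1, above Csf2rb at 2759 ± 496 and Csf2ra at 2299 ± 414, whose ranges of mean ± SD overlap. Il4ra followed them on every day of both models, although on CT26 day 0 it was at 373 ± 10.1 and Tgfbr2 at 370.0 ± 29.4, within their spread. Il6ra, Il10ra and Tgfbr2 were the lowest 3 in every group, and their order varied. On CT26 day 8 they had 460.1 ± 22.3, 261 ± 17.4 and 377 ± 17.0 per kilobase, and on B16 day 8 they had 371 ± 61.3, 288 ± 20.3 and 397.5 ± 34.1, where Il6ra and Tgfbr2 lay within their spread.

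Genes of the chains that pair with these receptors changed in both directions. Of 12 partner genes listed, 10 were tested in each model. On CT26 day 11, 6 rose and 2 fell, with a median log2 change of 1.05, against 26.3% and 24% of all genes and a median of -0.01. On B16 day 8, 4 rose and 4 fell, with a median of -0.09, against 28.6% and 27.3% of all genes and a median of -0.02. Il13ra1, the partner of Il4ra for IL-13, had means of 3344, 4220, 8134 and 9922 normalized counts on CT26 days 0, 4, 8 and 11, and 6221, 8561, 4992 and 8040.5 in B16. It rose by 1.28 ± 0.10 on CT26 day 8 (adjusted p = 4.19e-08) and fell by 0.32 on B16 day 8 (adjusted p = 0.000335), and on day 11 the CT26 change was 1.19 ± 0.11 above the B16 change (adjusted p = 3.29e-08). Il2rg, the other partner of Il4ra, fell by 0.74 on CT26 day 11 (adjusted p = 5.24e-05) and by 0.50 on B16 day 8 (adjusted p = 0.0127). Il10rb, the partner of Il10ra, fell by 0.23 on B16 day 8 (adjusted p = 0.00993) and rose by 0.63 ± 0.07 on CT26 day 11 (adjusted p = 1e-06). Its B16 day 8 change was -0.10 and not called with equal library totals (adjusted p = 0.24). On B16 day 11 Il10rb rose by 0.22 to 0.27 with 1 library left out at a time, called each time. With equal library totals that change was 0.10 and not called (adjusted p = 0.264). Tgfbr1, the partner of Tgfbr2, had group means between 908.5 and 1231 and no called change against day 0 in either model. Eng, a TGF-beta coreceptor gene, was scarce, with means of 1.33, 1.29, 13.2 and 52.0 on CT26 days 0, 4, 8 and 11 and an SD of 46.8 on the last, and Tgfbr3, another coreceptor gene, fell by 2.38 on B16 day 4 (adjusted p = 0.00439).

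Il1rap, the accessory chain that joins the IL-1 receptor and can join the decoy, had means of 2986, 4191, 5179 and 8963 normalized counts on CT26 days 0, 4, 8 and 11 and 1317, 2606, 2432 and 3377 in B16. It rose in all 6 comparisons with day 0, by 1.57 ± 0.11 on CT26 day 11 (adjusted p = 3.47e-09) and 1.36 ± 0.07 on B16 day 11 (adjusted p = 1.64e-07), with no dip to the day 0 range on B16 day 8. Il1r1, the signalling IL-1 receptor, was below the filter, at no more than 11.3 in any library. Il6st, the signalling partner of Il6ra, was scarce, at 7.75 ± 1.47 on CT26 day 0 and 61.3 ± 37.7 on CT26 day 11 (SD, n = 3 each), and rose by 2.68 ± 0.39 (adjusted p = 2.69e-05). Il5ra, which pairs with Csf2rb and marks eosinophils, had means of 395, 184, 126 and 25.0 on CT26 days 0, 4, 8 and 11, and 22.7, 27.0, 76.0 and 29.7 in B16. It fell by 3.93 on CT26 day 11 (adjusted p = 1.47e-12) and rose by 1.67 ± 0.24 on B16 day 8 (adjusted p = 7.06e-05). Il3ra, the IL-3 receptor alpha chain, fell by 0.79 on B16 day 8 (adjusted p = 0.000601) and had no other called change against day 0.

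Most ligand genes of these receptors were near 0 in these cells. Of 14 genes for ligands and the antagonist Il1rn, 6 passed the filter in CT26 and 5 in B16. Csf3, Il3 and Il5 were listed at 0 in all 12 CT26 libraries, and Csf2 was at most 6.12 there. Il1b, which encodes a ligand of the decoy, was abundant, with means of 65873, 49419, 58529 and 47067 on CT26 days 0, 4, 8 and 11. It fell by 0.49 on CT26 day 11 (adjusted p = 0.00635) and by 0.55 on B16 day 8 (adjusted p = 3.53e-06). Tgfb1, which encodes a ligand of Tgfbr2, went opposite ways: its means were 4700.2, 4697, 3126 and 2909 in CT26 and 2574, 4363, 4074 and 3479 in B16 on days 0, 4, 8 and 11. It fell by 0.70 on CT26 day 11 (adjusted p = 1.57e-05) and rose by 0.43 ± 0.07 on B16 day 11 (adjusted p = 0.00054), and the difference was -1.13 ± 0.13 (adjusted p = 3.03e-07). Il4 itself was scarce, with means of 70.5 on CT26 day 0 and 1.07 on CT26 day 11, and of 1.81 on B16 day 0 and 23.1 on B16 day 8.

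Genes that carry, limit or answer the receptors' signals moved in both directions. Of 20 kinases and transcription factors, 12 rose and 4 fell on CT26 day 11, and 14 rose and 0 fell on B16 day 11, with medians of 0.36 and 0.37. Of all genes 26.3% rose and 24% fell on CT26 day 11, and 23.9% rose and 21.8% fell on B16 day 11. Of genes at least as abundant as the lowest member, 52.4% rose on CT26 day 11 and 51.1% on B16 day 11. Jak3, the kinase bound by Il2rg, rose by 1.76 ± 0.10 on CT26 day 11 (adjusted p = 2.19e-10), and its log2 change on B16 day 8 was -0.05 ± 0.09 (adjusted p = 0.65). On B16 day 11 Jak3 rose as well, by 0.63 to 0.74 with 1 library left out at a time, and was called each time. Stat3, which acts below the G-CSF, IL-6 and IL-10 receptors, rose by 1.02 ± 0.10 on CT26 day 11 (adjusted p = 2e-07) and 0.35 ± 0.06 on B16 day 11 (adjusted p = 0.000526). Of 14 inhibitors and feedback regulators, 3 rose and 3 fell on CT26 day 11, and 7 rose and 0 fell on B16 day 11, beside the same shares of all genes. Socs3, an inhibitor of G-CSF and IL-6 signalling, had means of 11087, 12721, 25358 and 24353 on CT26 days 0, 4, 8 and 11 and 8998, 15010.3, 10273 and 19529 in B16. Socs3 rose by 1.19 ± 0.11 on CT26 day 8 (adjusted p = 3.14e-07) and by 0.19 ± 0.07 on B16 day 8 (adjusted p = 0.0295), a call that was lost without replicate 1 or 2 of day 0 or replicate 1 of day 8 (adjusted p up to 0.102).

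Of 21 genes known to respond to these ligands, 14 rose and 1 fell on CT26 day 8, with a median log2 change of 0.60, while in B16 on that day 5 of 18 tested rose and 11 fell, with a median of -0.31. Of all genes, 15.1% rose and 11.8% fell on CT26 day 8, and 28.6% rose and 27.3% fell on B16 day 8. Of genes at least as abundant as the lowest member, 31.9% rose on CT26 day 8 and 43.4% fell on B16 day 8. Nfil3, a transcription factor gene induced by IL-3 and IL-4 in lymphocytes, rose by 1.61 on CT26 day 11 and 1.02 on B16 day 11, and by 0.35 on B16 day 8. Osm, a cytokine gene known as a target of GM-CSF and STAT5, had a log2 change of 0.05 on CT26 day 8 and fell by 0.94 on B16 day 8. With 1 library left out at a time, its CT26 day 11 change ran from -0.71 to -0.54 and was called each time. Its B16 day 11 change then ran from 0.11 to 0.18 (adjusted p up to 0.364). Arg1 and Retnla, both known to answer IL-4 in macrophages, passed the filter in CT26 alone. Arg1 ranged from 161 to 659.6 normalized counts on CT26 day 8 and from 628 to 5379 on day 11, where its SD of 2599 exceeded its mean of 2394, and from 0 to 4.42 on day 0. Of the 7 proteases and trafficking genes known to release or degrade receptor chains, 6 were tested; 3 rose and 1 fell on CT26 day 11, against 26.3% and 24% of all genes, and 5 rose on B16 day 11, against 23.9%. Adam10, a membrane sheddase, rose by 0.73 on CT26 day 11 and 0.22 on B16 day 11. The B16 call of Adam10 was lost without replicate 1 of day 0 or any 1 day 11 library (adjusted p up to 0.117). It was also lost with equal library totals (0.08, adjusted p = 0.384). Equal totals likewise ended the B16 day 11 calls of Itch (0.07, adjusted p = 0.45) and Cblb (0.40, adjusted p = 0.0646). The CT26 day 11 call of Rhbdf2 ended there too (0.03, adjusted p = 0.754). Each of these calls also ended in some fits that left out 1 library.

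Markers of several blood cells also differed between days. The summed level of 9 neutrophil markers was 347237 to 465243 on CT26 day 0, 408820 to 450079 on day 4, 549843 to 664322 on day 8 and 651354 to 822283 on day 11. In B16 it was 602255 to 632103 on day 0, 609555 to 609933 on day 4, 464902 to 524352 on day 8 and 745148 to 810473 on day 11, lowest on day 8. Il4ra and Il1r2 were low on B16 days 0 and 8 and higher on days 4 and 11. The neutrophil sum was close on B16 days 0 and 4, lowest on day 8 and highest on day 11. In CT26 this sum and both genes reached their highest values on day 11. The 8 tissue macrophage markers summed to 1908 to 2043 on CT26 day 0, 885 to 1035 on day 4, 1018 to 1789 on day 8 and 1112 to 7919 on day 11. Of the 7 tested in CT26, 5 rose and 1 fell on day 8, and 6 rose and 1 fell on day 11, with C1qa and Marco at 0 in all day 0 libraries. Of all genes 15.1% rose and 11.8% fell on CT26 day 8, and 26.3% rose and 24% fell on CT26 day 11. The CT26 day 8 sum lay below that of day 0, although most of these genes rose. In B16 the 8 macrophage markers summed to 1356 to 1605 on day 8 and 667 to 761 on day 0, with Marco and Timd4 at 0 in all day 0 libraries. All 4 tested rose on day 8, against 28.6% of all genes. The 9 eosinophil markers summed to 863 to 1029 on CT26 day 11 and 5286 to 5757 on CT26 day 0, and to 1878 to 2163 on B16 day 8 and 510.0 to 587 on B16 day 0. The 9 B cell markers summed to 351 to 708 on CT26 day 11 and 2801 to 2980.4 on day 0, and to 2162 to 2414 on B16 day 8 and 4555 to 4854 on B16 day 0. The 6 platelet markers summed to 14725 to 65979 on the later B16 days and 1648 to 7434 on B16 day 0, and 413 to 2716 in CT26. The 8 monocyte markers summed to 15694 to 23352 on CT26 day 11 and 10484 to 11054 on day 0, and to 14998 to 15445 on B16 day 11 and 9259 to 11609.7 on B16 day 0. The 7 T cell markers in the tables and the 6 NK cell markers summed to no more than 506 and 136 in any library, and the 5 basophil and mast cell markers to no more than 15.5. The 5 erythroid markers in the tables were highest on B16 day 4, at 665 to 729. The part of these markers in the receptor results was not tested.

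Genes with the most similar course were found by the root mean square difference of log2 values, centred within each model, over 23 libraries and 10989 genes. Il4ra was nearest to Rhobtb2 (0.143) and Gyg (0.177), and Il1r2 to Lcn2 (0.206), a neutrophil granule protein gene, and Rfx2 (0.242). The spreads of Il4ra and Il1r2 about their own means were 0.747 and 0.706 on this scale. Csf3r was nearest to Cnot3 (0.0675) and Akna (0.0766), Csf2ra to Atxn2l (0.0900) and Igsf6 (0.114), Csf2rb to Mefv (0.144) and Phospho1 (0.145), and Il6ra to Aff1 (0.0914) and Nup153 (0.0938). Il10ra was nearest to Lgals3 (0.139) and Rnf25 (0.143), and Tgfbr2 to Pik3cg (0.0581) and Elf1 (0.0616). Among the 8 receptor genes themselves, Il4ra and Il1r2 were each other's nearest (0.285), as were Csf3r and Tgfbr2 (0.112), while Il10ra was the farthest from any other (0.467 to Csf3r).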

How the data were processed

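Poly-A RNA-seq libraries of bead-separated blood myeloid cells were deposited as 2 tables of normalized counts, a signal made by the authors by dividing gene read counts by 1 factor per library. Tools listed in the submitters' processing notes, without their roles, are DESeq2 1.6.3, HTSeq 0.6.1p1, TopHat2 2.0.10 and cutadapt, with the build mm10. Neither the annotation nor the strand setting is stated there. Each value was a whole multiple of 1 step per library within 0.001. Reads were recovered for 8 CT26 and 11 B16 libraries (10.9 to 16.0 M reads in B16), and for 4 CT26 libraries the recovery was not accepted. These 4 were set aside only because their steps were close to 1 (0.994 to 1.007), and their values were whole multiples as well. They include replicates 2 and 3 of day 4.

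limma 3.58.1 (R 4.3.3) was fitted with a trend on log2(value + 1) where a gene's mean reached 5 (11373 genes for CT26, 11930.0 for B16), with a mean for each day and without a replicate block. The difference between models was fitted over 10989 genes. Tests were 2-sided, with Benjamini-Hochberg adjustment over all tested genes and a threshold of 0.05. A fold change on this scale understates changes of low genes. Intervals are 2 standard errors. Alternatives were pseudocounts of 0.5 and 5, no filter, equal library totals, the replicate block, each library left out, and edgeR 4.0.16 and DESeq2 1.42.0 on recovered reads; equal totals without Rn45s was added after the data were seen. The limma fits were tried on simulated data, whose spread was set and not taken from these libraries. There 100% of 4-fold and 40.3% of 1.5-fold changes on day 8 were called in each model. Of 1.5-fold differences between models, 15.15% were called. Coordinates are from a GRCm38 annotation, promoters from RefSeq GRCm38.p6. Figures used matplotlib 3.10.9.

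The members, gene lists and tests were chosen with earlier results of these data known. Named genes are the 8 members, partner chains and ligands, up to 4 called genes of each list with the largest change on day 8 or 11, and the 2 genes nearest to each member. Some genes these rules allow are left out for length, and 2 genes of the lists are not reported here.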

Additional observations from a re-analysis of the deposited data

Results flagged for a closer look

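The change since day 0 differed between the models for 13 gene and day pairs, by the limma test of the difference itself (CT26 minus B16, log2, adjusted over 10989 genes). On day 8 the difference was 1.633 for Il4ra, 1.141 for Il1r2, 1.032 for Il10ra, -0.8431 for Tgfbr2, -0.7467 for Csf2ra and -0.4692 for Csf3r. On day 11 it was 1.566 for Il1r2, 1.344 for Il4ra, -0.6173 for Csf2ra, -0.5796 for Tgfbr2 and -0.5015 for Csf3r. On day 4 it was -0.5184 for Il4ra and -0.4537 for Csf2rb. Mouse strain, tumour line and the separate normalization of the tables cannot be told apart from the model. No group had 4 or more libraries, so single libraries were not tested for distance from their group.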

How the results depend on the processing

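Of 8 receptor genes in 13 comparisons, no call reversed when a library was left out or with another pseudocount, no filter, the block or a count test. With equal library totals Csf2ra and Tgfbr2 turned to -0.24 and -0.25 on CT26 day 11 (-0.25 for both without Rn45s), and Ptpn11 to -0.011 (-0.013 without Rn45s). Rhbdf2 turned to -0.15 on B16 day 11 with equal totals without Rn45s, and Socs1 on B16 day 11 ran from -0.57 to 0.38 when 1 library was left out, positive without replicate 3 of day 0. The causes were not tested beyond the shift of all genes: equal totals moved the median of all genes to -0.29 on CT26 day 11, -0.18 on CT26 day 8, -0.15 on B16 day 11 and 0.11 on B16 day 8. Of the genes called on CT26 day 11, 26.9% were then higher, against 52.3% before, and the share was 37.8% against 58.9% on CT26 day 4, 29.5% against 56.0% on CT26 day 8, 40.2% against 55.5% between CT26 days 4 and 8, and 32.7% against 52.4% between CT26 days 8 and 11. In B16 it was 61.3% against 51.2% on day 8, 36.5% against 52.4% on day 11, 74.9% against 47.3% between days 4 and 8, and 18.4% against 51.8% between days 8 and 11. For the difference between models it was 33.1% against 44.1% on day 4, 26.6% against 47.1% on day 8, and 34.8% against 48.3% on day 11.

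On recovered reads edgeR and DESeq2 called 74 and 212 genes on CT26 day 4 (1235 by limma), a fit with a single day 4 library whose spread is taken from the other days, 1405 and 1230 on day 8 (3056), 283 and 337 between CT26 days 4 and 8 (1522), 949 and 796 between days 8 and 11 (2375), and 845 and 1099 for the day 4 difference between models (2301); DESeq2 called 3344 on CT26 day 11 (5721). These fits have fewer CT26 libraries. Of the receptor genes, edgeR called 0 on CT26 day 4 (3 by limma), edgeR and DESeq2 called 1 and 2 between CT26 days 4 and 8 (4 by limma), and both called 0 for the day 4 difference (2 by limma), where no filter and the replicate block each gave 1. Leaving out 1 library gave 626 to 2419 genes and 1 to 5 receptor genes on CT26 day 4, the highest without replicate 1 of day 11, 1583 to 3428 genes between CT26 days 8 and 11, 2 to 4 receptor genes between CT26 days 4 and 8, 2782 to 4322 genes on B16 day 4, and 1194 to 2761 genes and 0 to 3 receptor genes for the day 4 difference.

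Replicate numbers did not pair the libraries: deviations of same-numbered libraries correlated at -0.163 to 0.223 in CT26 and -0.107 to 0.226 in B16. With the replicate block 1090.0 genes were called on CT26 day 4. All 8 receptor genes were well above the minimum mean of 5, and partners and ligands below it were not tested.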

Other observations

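Other cytokine receptors of blood myeloid cells gave a mixed picture. Of 21 tested in CT26, 13 rose and 4 fell on day 11, with a median log2 change of 0.46, and of 22 tested in B16, 12 rose and 1 fell, with a median of 0.22; of all genes 26.3% rose and 24% fell in CT26, and 23.9% rose and 21.8% fell in B16. Kit, the stem cell factor receptor gene, had means of 11.3, 4.96, 60.6 and 219.9 normalized counts on CT26 days 0, 4, 8 and 11 and rose by 4.18 on day 11 (limma, called), while in B16 its means were 54.7, 157.7, 40.5 and 105.1. Il1rl1, the IL-33 receptor gene, fell by 2.61 on CT26 day 11, and its B16 log2 changes of 0.52 on day 8 and -0.70 on day 11 were called with all libraries. The day 8 call was lost without replicate 3 of day 0 (0.31, adjusted p = 0.165), replicate 1 or 2 of day 8 or replicate 2 of day 11. The day 11 call was lost without replicate 1 or 2 of day 0 (adjusted p up to 0.053). Epor, the erythropoietin receptor gene, had means of 15.1 on B16 day 8 and 0.736 on B16 day 0, a called rise, and was below the filter in CT26.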
